A study of Arabidopsis thaliana with 9 samples.

Results

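The libraries numbered rep1 and those numbered rep2 were compared in Arabidopsis thaliana seedlings, paired by genotype. Members were chosen by their titles, which gave 3 libraries titled rep1 and 3 titled rep2 out of 9 in the series; the 3 titled rep3 were left out. Each number holds 1 library of wild type (WT, the Col-0 accession), 1 of the atrzf1 mutant and 1 of pca31, which the series describes as a suppressor of atrzf1. AtRZF1 encodes a RING-type E3 ubiquitin ligase, an enzyme that tags proteins for breakdown, and the series concerns it in the dehydration response. The plants of every library were 2-week-old seedlings on MS, a standard plant salt medium, and no stress treatment is named. The alleles behind atrzf1 and pca31, the ecotype of either line, the hour of harvest, the growth batch and the number of plants per library are stated in no source used here. The labels also leave out whether rep1 and rep2 came from separate cultures, so p-values measure only the spread between these libraries, which may be technical.

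The plant circadian clock is a loop of transcription factors that are expressed in turn over the day. CCA1 and LHY are most abundant around dawn, the pseudo-response regulators PRR9, PRR7 and PRR5 follow one another through the day, and TOC1 and the evening complex of ELF3, ELF4 and LUX or BOA follow towards night. Many genes of light harvesting, chlorophyll synthesis, nitrate use and stress tolerance have a daily rhythm set by this loop and by light itself.

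Total RNA was sequenced by QuantSeq, a method that reads the 3′ end of each polyadenylated transcript, so that a count stands for a transcript end and not for transcript length. Levels are CPM, that is counts scaled to a common library size, with TMM factors, and every log2 fold change is coded rep2 minus rep1, so that a negative value is a gene lower in rep2. Library totals ran from 27712644 to 33073605 counts, and a count of 0 allowed a level of up to 0.0793 to 0.122 CPM (3 counts per library, covering counting error only). Libraries of the same number were more alike across genes (Spearman 0.961 to 0.980) than libraries of the same genotype (0.918 to 0.958). On the first principal component, with 50.8% of the variance, the rep1 libraries lay at -45.0 to -59.4, and the rep2 libraries of WT and atrzf1 at 68.7 and 74.4. The rep2 library of pca31 stood apart at 12.2, so calls were also counted without the pca31 pair. AtRZF1 was at 22 and 28.9 CPM in the WT libraries of rep1 and rep2, at 2.11 and 4.27 in atrzf1 and at 1.05 and 2.91 in pca31, lower in all 4 mutant libraries than in either WT library.

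Of 19724 genes tested, 4237 (21.5%) were called at an adjusted p under 0.05 by edgeR's quasi-likelihood test with Benjamini-Hochberg adjustment. Of these, 2019 (10.2% of genes tested) were higher in rep2 and 2218 (11.2%) were lower. These 2 shares are the background for each count of called list members below. The large changes were mostly falls: 1229 genes (6.23%) fell by at least 2-fold and 680 (3.45%) rose by as much, and at a 4-fold minimum 198 fell and 73 rose. Of the called genes, 4214 moved the same way in all 3 genotype pairs. The calls came from a fit to these same pairs, which favours such genes, so this count is no separate support. The libraries of rep1 and rep2 did not overlap for 39.4% of all genes tested, which is the background for each statement below that levels did not overlap. Scaling by library totals in place of TMM moved the median of all genes from -0.03 to -0.14 on the log2 scale, and the split of calls from 2019 higher and 2218 lower to 1261 and 2164. Without the pca31 pair 6765 genes were called, without the WT pair 2099 and without the atrzf1 pair 1558.

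The evening element, AAAATATCT, is a short sequence of evening-expressed promoters that CCA1 and LHY are known to bind. It is shown because the same letters stood before genes that moved in opposite directions between the numbers. Within 250 bases upstream of the annotated start (RefSeq annotation and sequence of TAIR10.1, both strands searched), 508 of 19668 promoters of tested genes held it. That was 2.58% of all promoters, 2.59% of those of genes higher in rep2 and 3.89% of those of genes lower in rep2. Each stretch below runs 5′ to 3′ on the strand of its gene, and the capitals mark 1 match to AAAATATCT or its reverse complement AGATATTTT. The window of CCR2 holds 3 matches and that of COR27 holds 2. Each of these stretches shows 1 further match in lower case, and the remaining match of CCR2 is not within its stretch. Other named genes held the element and are not printed: CCR1, SEP3 and MYBL2, which fell, and FKF1 and LUX, which were not called. The balance of directions shown is thus a result of this choice. Of the genes printed, RVE7, PRR5 and PORA fell in rep2, and TOC1, BOA, COR27 and CCR2 rose.
RVE7, chr1:6308259-6308318, minus strand: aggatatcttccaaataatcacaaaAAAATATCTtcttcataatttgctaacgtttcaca
PRR5, chr5:8358699-8358758, minus strand: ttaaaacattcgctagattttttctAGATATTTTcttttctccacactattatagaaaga
PORA, chr5:21992960-21993019, minus strand: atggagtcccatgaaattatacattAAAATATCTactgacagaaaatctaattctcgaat
TOC1, chr5:24674787-24674846, plus strand: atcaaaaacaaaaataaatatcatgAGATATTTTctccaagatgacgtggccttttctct
BOA, chr5:24003820-24003879, plus strand: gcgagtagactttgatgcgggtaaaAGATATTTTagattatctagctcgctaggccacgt
COR27, chr5:17199911-17199955, minus strand: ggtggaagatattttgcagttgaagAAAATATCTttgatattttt
CCR2, chr2:9266558-9266613, minus strand: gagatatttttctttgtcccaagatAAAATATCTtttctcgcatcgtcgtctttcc

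Of the 11 tested genes in the afternoon and evening clock list, 5 had the evening element in the window of 250 bases and 2 in a window of 150 bases. Of the 13 in the morning list 1 had it in either window. Among the 197 promoters of genes that fell by at least 4-fold, a set chosen after the data were seen, 15 (7.61%) held it, against 3 of 73 (4.11%) of those that rose by as much. In a window of 150 bases these shares were 4.06% and 4.11%, so the difference between these 2 sets was not there. In that shorter window 1.59% of all promoters held it, 1.49% of those higher in rep2 and 2.67% of those lower. The G-box CACGTG, a site of light- and abscisic-acid-linked factors, was in 7.38% of all promoters, 5.48% of those higher in rep2, 9.53% of those lower, 13.7% of those at least 4-fold lower and 9.59% of those at least 4-fold higher. The ABRE core ACGTG lies inside the G-box, so their matches overlap, and its shares were 23.5%, 21.8%, 26.1%, 34.0% and 27.4% in the same order. In the window of 250 bases, used for these shares, both motifs were above their share of all promoters in the 4-fold sets of either direction. The telo-box AAACCCTAA, common before ribosomal protein genes, was in 2.14% of all promoters, 1.79% of those higher and 1.76% of those lower. The shares with the CCA1 binding site AAAAATCT lay close together, at 6.74%, 6.67% and 6.91%. A match is only a match of letters.

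The morning arm of the clock was lower in rep2 in all 3 genotypes. Of 13 tested members, 11 fell, RVE2 rose and RVE4 did not pass, with a median log2 fold change of -4.70 against -0.03 for all genes. LHY (AT1G01060, TAIR10.1 chromosome 1, 33365 to 37871, minus strand), a dawn-expressed MYB repressor, was at 4.58, 4.63 and 2.66 CPM in the rep1 libraries of WT, atrzf1 and pca31. In rep2 it was at 0.588, 0.163 and 0.529 CPM. Every rep1 library was above every rep2 library, and the means were 3.96 ± 1.12 and 0.426 ± 0.230 CPM (SD, n = 3 each). The fall was 9.13-fold, with a log2 fold change of -3.19 ± 0.51 (SE) and an edgeR adjusted p of 0.00199. Leaving out the WT, atrzf1 or pca31 pair gave -3.34, -2.63 and -3.69, and the gene stayed called each time.

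CCA1, the partner of LHY, was at 5.10, 3.23 and 1.93 CPM in rep1 of WT, atrzf1 and pca31 and at 0, 0.0813 and 0.106 CPM in rep2. It was near the limit of detection in each rep2 library. Over the 3 libraries of each number that is 327 against 6 counts, a ratio of 49.3 with a 95% exact counting interval of 22.4 to 135. Its log2 fold change of -5.45 was -4.63 without the WT pair and -6.52 without the pca31 pair.

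The pseudo-response regulators that repress CCA1 and LHY by day also fell. PRR9 gave 413 counts in the 3 rep1 libraries, at 4.61, 5.31 and 2.92 CPM, and 1 count in the 3 rep2 libraries. The ratio was 374 with an exact 95% counting interval of 66.7 to 1.48e+04, so its size is set by a single count. PRR7 was at 65.1, 73.8 and 65.4 CPM in rep1 and at 3.02, 1.26 and 2.72 CPM in rep2, a 29.9-fold fall (log2 fold change -4.90 ± 0.29, edgeR adjusted p = 3.55e-06). The lowest rep1 library of PRR7 was far above the highest rep2 library in every genotype. PRR5, which peaks later in the day, fell less, 7.44-fold, from 20.8 ± 3.06 to 2.80 ± 0.43 CPM (SD, n = 3 each).

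The LNK genes, which encode coactivators that work with RVE8, fell as a family of 4. LNK1 went from 18.6 ± 2.61 to 0.366 ± 0.13 CPM (48.4-fold), LNK2 from 32.9 ± 6.70 to 1.29 ± 0.76 (26.1-fold), LNK3 from 9.29 ± 1.93 to 0.307 ± 0.12 (30.2-fold) and LNK4 from 69.5 ± 11.9 to 3.38 ± 1.1 (21.1-fold). None of the 4 overlapped between the numbers, and LNK2 fell further without the pca31 pair, at a log2 fold change of -5.31 against -4.70.

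The REVEILLE genes, MYB relatives of LHY, did not move together. RVE7 was at 41.5, 55.9 and 30.3 CPM in rep1 and at 1.1, 1.38 and 1.32 CPM in rep2, a 32.2-fold fall. RVE2 ran the other way, at 0.682, 0.776 and 0.351 CPM in rep1 against 9.41, 18.0 and 15.73 CPM in rep2, a 23.55-fold rise (log2 fold change 4.56 ± 0.33, edgeR adjusted p = 1.39e-05). RVE8, an activator of evening genes, fell 3.37-fold and RVE1 2.44-fold, both at low levels of 2.51 ± 0.36 and 4.13 ± 1.13 CPM in rep1. Without the atrzf1 pair neither was called (log2 fold changes of -1.64 and -1.01, edgeR adjusted p = 0.084 and 0.182), and RVE1 was not called without the WT pair (-1.20, adjusted p = 0.079). RVE4 was at 39.8 ± 2.70 CPM in rep1 and 32.5 ± 4.96 CPM in rep2, with overlapping libraries.

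**Figure D1:**
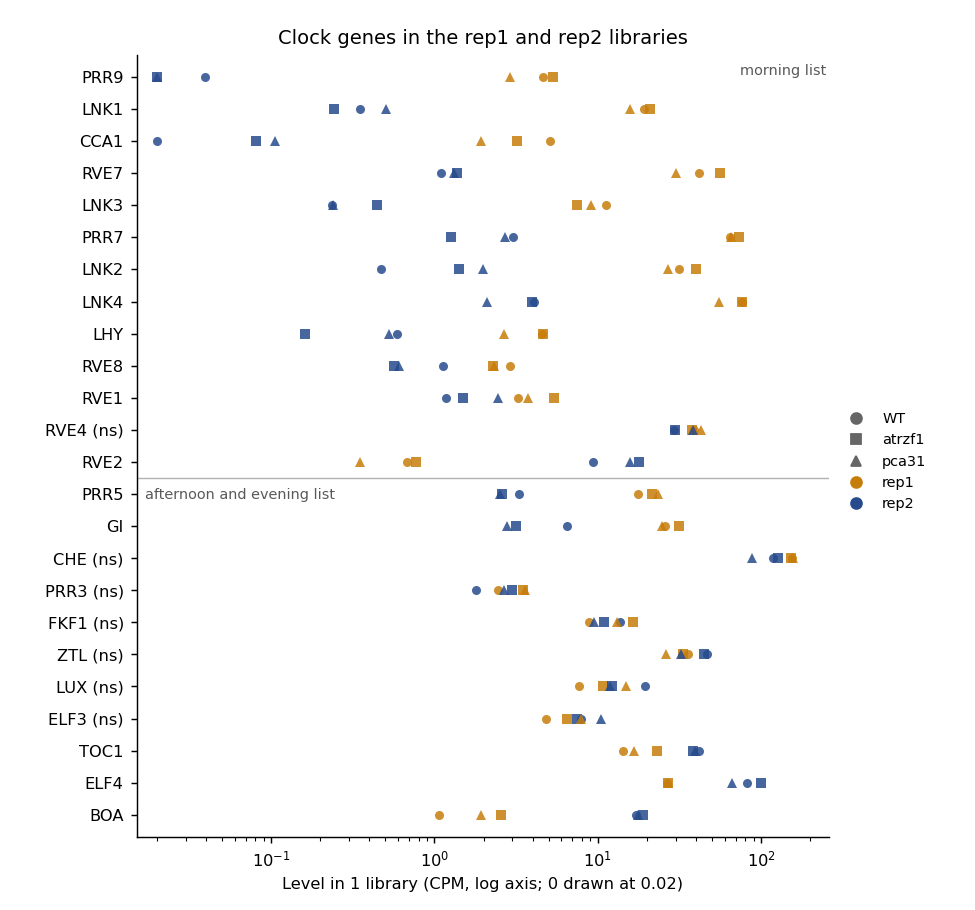
Level of each of the 24 tested clock genes in each of the 6 libraries, in CPM on a log axis with 0 drawn at 0.02; colour gives the replicate number and shape the genotype, and (ns) marks genes not called. PRR9 to RVE1 lie to the left in rep2 in all genotypes, while RVE2, TOC1, ELF4 and BOA lie to the right.

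The afternoon and evening list held both directions, with 3 of 11 tested members higher, 2 lower and a median of 0.37, which was -0.06 without the WT pair. TOC1, the evening repressor of CCA1 and LHY, was at 14.3, 23.0 and 16.6 CPM in rep1 and at 41.5, 38.6 and 39.4 CPM in rep2. The rise was 2.25-fold (log2 fold change 1.17 ± 0.20, edgeR adjusted p = 0.00262), and the libraries did not overlap. Within the evening complex, ELF4 rose 3.05-fold, from 26.8 ± 0.32 to 82.9 ± 17.2 CPM. BOA, a MYB-like factor closely related to LUX, rose 10.1-fold, from 1.07, 2.55 and 1.93 CPM to 17.3, 19.1 and 17.8 CPM. LUX itself was at 7.63, 10.7 and 15.0 CPM in rep1 and at 19.4, 12.3 and 11.9 CPM in rep2, higher in 2 pairs and lower in pca31. ELF3 was at 6.41 ± 1.54 and 8.63 ± 1.63 CPM. ELF4 and BOA were thus called and ELF3 and LUX were not, but without the pca31 pair LUX was called higher (log2 fold change 0.77, edgeR adjusted p = 0.00654) and without the WT pair it was at -0.06.

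GI, which stabilises the light receptor ZTL and acts upstream of flowering genes, fell 7.03-fold, from 25.8, 31.6 and 24.9 CPM to 6.47, 3.17 and 2.78 CPM. The F-box light receptors were not called: ZTL was at 31.9 ± 4.92 and 41.3 ± 7.84 CPM, and FKF1 at 12.8 ± 3.83 and 11.4 ± 2.16 CPM. CHE, a TCP factor that represses CCA1, was at 155 ± 2.08 CPM in rep1 and 111 ± 20.6 CPM in rep2 (log2 fold change -0.50 ± 0.18, edgeR adjusted p = 0.0633). PRR3 was at 3.18 ± 0.62 and 2.49 ± 0.62 CPM.

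Output genes split in a like manner. In the list of day-phased outputs 6 of 8 fell and 1 rose, with a median of -2.0. PIF5 and PIF4, growth-promoting factors that act downstream of phytochrome, fell 8.67-fold and 4.80-fold, PIF5 from 119 ± 13.4 to 13.8 ± 2.48 CPM and PIF4 from 107 ± 5.64 to 23.8 ± 10.5 CPM. CDF1, a repressor of the flowering gene CO, fell 7.16-fold, and CAT2, a leaf catalase, fell 3.35-fold from 256 ± 7.14 to 76.4 ± 6.21 CPM. CO itself, counted with FT in the evening output list, rose 3.81-fold. It went from 1.56, 1.86 and 1.05 CPM to 5.88, 4.63 and 6.34 CPM. Its target FT was at 0.618 ± 0.06 and 1.88 ± 0.44 CPM, and its test gave an edgeR adjusted p of 0.0508. HY5, a promoter of light responses, was the 1 rise of the day list, 2.33-fold at a low level, from 1.77 ± 0.52 to 4.04 ± 0.20 CPM. Without the WT or the atrzf1 pair, or with library totals, 0 of the 8 members of the day list were called higher.

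Of 5 tested evening outputs 2 rose and 1 fell, with a median of 1.24. The evening outputs CCR2 and CCR1, glycine-rich RNA-binding proteins, went in opposite directions. CCR2, also called GRP7, was among the most abundant transcripts, at 5379, 6443 and 4947 CPM in rep1 and 17155, 12855 and 10165 CPM in rep2, a 2.35-fold rise. CCR1 fell 1.54-fold, from 5589 ± 616 to 3676 ± 816 CPM, and was not called without the WT pair (log2 fold change -0.72, edgeR adjusted p = 0.147) or the atrzf1 pair (-0.61, adjusted p = 0.145).

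Starch breakdown enzymes, which work at night, were mostly not called. Against 11.2% of all genes called lower and 10.2% higher, 3 of 11 fell, 0 rose and the median was -0.36. With the length trend described below removed, 1 fell at a median of -0.17, and without the pca31 pair 5 fell and 1 rose. Falls numbered 3 without the WT pair and 1 without the atrzf1 pair. PHS1, the plastid starch phosphorylase, fell 2.53-fold, from 70.1 ± 9.62 to 27.7 ± 4.02 CPM. GWD1, the enzyme that phosphorylates starch, fell 1.83-fold and DPE2, which uses the released maltose, 1.82-fold. The last pair were not called without the atrzf1 pair (log2 fold changes of -0.67 and -0.80, edgeR adjusted p = 0.108 and 0.0512).

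**Figure D2:**
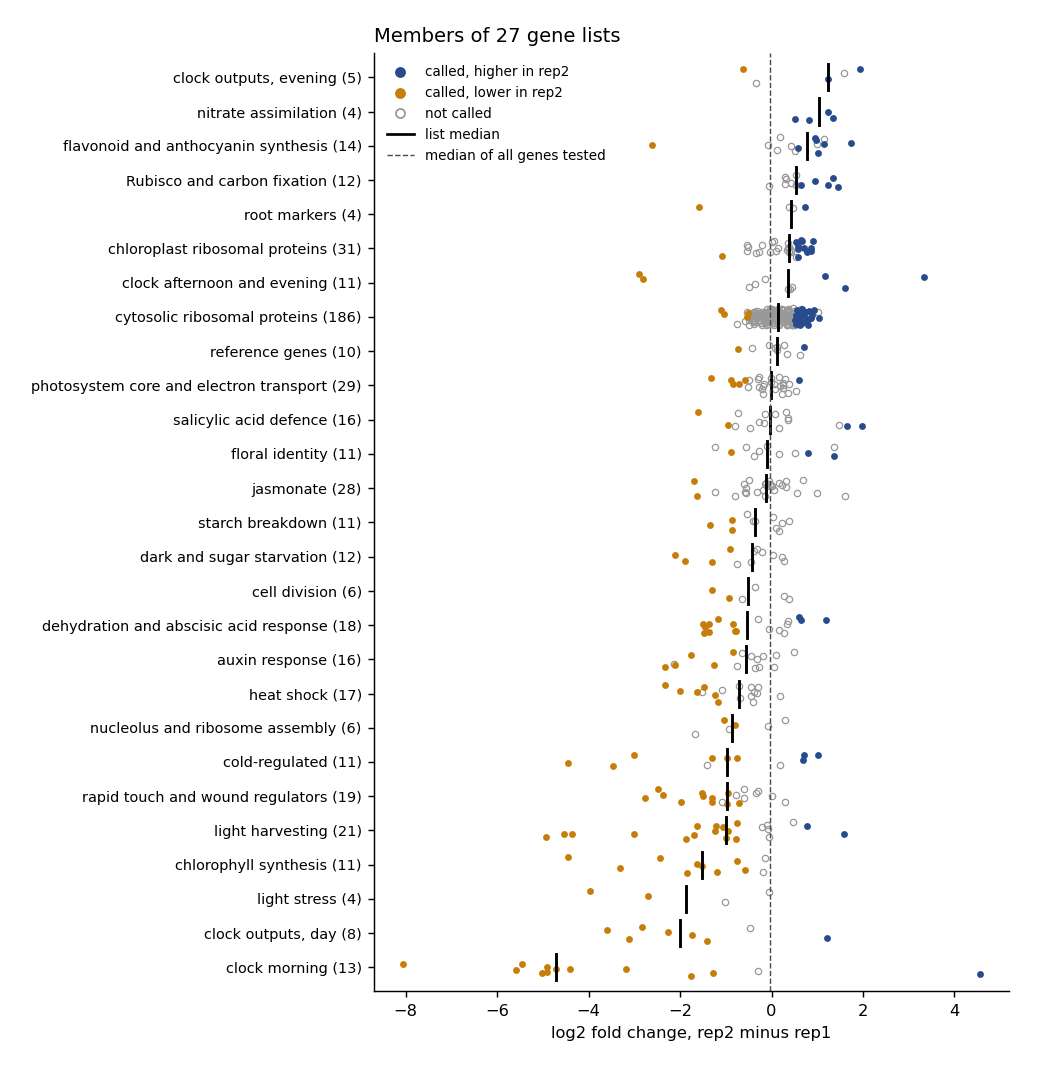
Log2 fold change (rep2 minus rep1) of every tested member of 27 gene lists, ordered by list median (black bar), with the number tested in parentheses; blue and orange points were called higher and lower, open points were not called, and the dashed line is the median of all genes. The morning clock list lies farthest to the left, at a median of -4.70, and the nitrate list has 4 of 4 members to the right.

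Light-harvesting genes encode the chlorophyll-binding antenna proteins of photosystem I (LHCA) and photosystem II (LHCB), and they were the largest block of transcripts that fell. Of 21 tested, 14 fell, 2 rose and 5 did not pass, with a median of -0.99, against a background of 11.2% of all genes called lower. Their summed level was 120359, 111843 and 106262 CPM in rep1 of WT, atrzf1 and pca31 and 73384, 58604 and 38267 CPM in rep2. That was 11.5% to 12.0% of all counts in rep1 and 4.38% to 6.44% in rep2. Each genotype moved down, 2.06-fold on average, and the exact sign-flip permutation test of the 3 pairs gave p = 0.25, two-sided, the smallest it can give. In bulk seedlings, fewer cells of a type and less RNA per cell cannot be told apart.

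The fall differed widely between antenna genes. The 3 LHCB2 genes, whose proteins are phosphorylated to move antennae between the photosystems, fell most. LHCB2.1 was at 5114, 4886 and 3933 CPM in rep1 and at 344, 188 and 119 CPM in rep2, a 23.4-fold fall (log2 fold change -4.55 ± 0.26, edgeR adjusted p = 2.75e-06). LHCB2.2 fell 20.5-fold and LHCB2.3 30.7-fold, the latter from 1228 ± 166 to 44.4 ± 26 CPM. In every case the pca31 library was the lowest of the 3 rep2 values.

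Within the major LHCB1 antenna family, LHCB1.1 was at 11968, 10801 and 11725 CPM in rep1 and at 1790, 1819 and 890 CPM in rep2, an 8.04-fold fall. LHCB1.3, its neighbour on chromosome 1, was at 16260.4, 14043 and 12769 CPM in rep1 and at 18154, 14707 and 9865 CPM in rep2, and was not called. LHCB1.2, LHCB1.4 and LHCB1.5 fell 2.32-, 2.37- and 1.69-fold. LHCB1, LHCB2 and Rubisco small subunit genes are near-identical copies whose reads may have been shared, so the split within each family is uncertain.

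LHCB3 fell 3.68-fold, LHCB4.2 3.24-fold and LHCA4 3.08-fold, while LHCB4.1 and LHCA2 were not called, at log2 fold changes of -0.21 ± 0.20 and -0.10 ± 0.18. The 2 members that rose were both of low level: LHCB4.3 went from 18.6 ± 2.71 to 57.1 ± 16.9 CPM and LHCA6 from 56.7 ± 8.18 to 96.6 ± 7.57 CPM. LHCA6 belongs to the antenna that links photosystem I to the chloroplast NADH dehydrogenase-like complex.

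Subunits of the photosystem cores and electron carriers were mostly not called. Of 29 tested, 5 fell and 1 rose, with a median of -0.02. PSAD2 fell 2.52-fold, from 739, 699 and 941 CPM to 344, 390 and 224 CPM, while its copy PSAD1 was at 2357 ± 156 and 1959.8 ± 461 CPM and was not called. PSBQ2 fell 1.84-fold and PSAH2 1.79-fold, and FNR2, a ferredoxin reductase, fell 1.64-fold as FNR1 rose 1.53-fold. FNR2 was not called without the WT pair (log2 fold change -0.60, edgeR adjusted p = 0.231) or the atrzf1 pair (-0.61, adjusted p = 0.133), and PSBQ2 not without the atrzf1 pair (-0.72, adjusted p = 0.0755). FNR1 was the single rise, and 0 members were called higher without the WT pair, without the atrzf1 pair, with library totals, with no genotype term or with the length trend removed. Falls numbered 3 without the WT pair and 2 without the atrzf1 pair, and without the pca31 pair 5 rose and 5 fell. With library totals 7 fell, and with the length trend removed 8 fell, at a median of -0.23. The median transcript length of this list was 1048 bases, against 1719 for all genes.

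Chlorophyll synthesis fell as a pathway, with 9 of 11 tested members lower, 0 higher and a median of -1.51. Its summed level was 3361, 3271 and 3222 CPM in rep1 and 1511, 1364 and 1212 CPM in rep2, and no rep1 library overlapped a rep2 library. PORA, the protochlorophyllide reductase of dark-grown seedlings, was at 11.9, 35.7 and 46.1 CPM in rep1 and at 1.1, 1.91 and 0.952 CPM in rep2, a 22-fold fall. Its log2 fold change of -4.46 became -3.87 without the pca31 pair. CAO, which makes chlorophyll b, fell 9.95-fold, from 86.9 ± 8.77 to 8.80 ± 1.66 CPM. HEMA1, the first committed enzyme of the pathway, fell 5.43-fold, and CHLH, the large subunit of magnesium chelatase, 3.60-fold. CHLD and CHLM did not pass, at log2 fold changes of -0.14 ± 0.17 and -0.19 ± 0.16.

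Carbon fixation went the opposite way to the antennae. Of 12 tested genes for Rubisco and the Calvin-Benson cycle, 5 rose and 0 fell, with a median of 0.53 against 10.2% of all genes called higher. RBCS1B, a Rubisco small subunit, was at 1417, 1253 and 1299 CPM in rep1 and at 3368, 4916 and 2928 CPM in rep2, a 2.76-fold rise (log2 fold change 1.46 ± 0.20, edgeR adjusted p = 0.000893). RBCS2B rose 2.36-fold, and GAPA1 and GAPB, the subunits of chloroplast glyceraldehyde-3-phosphate dehydrogenase, rose 2.53- and 1.93-fold. The 2 most abundant small subunit genes, RBCS1A and RBCS3B, had log2 fold changes of 0.53 ± 0.19 and 0.42 ± 0.18 and did not pass. Rises numbered 4 of 12 without the WT pair (median 0.57), 4 without the atrzf1 pair (median 0.37) and 9 without the pca31 pair (median 0.66).

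Among light stress genes 2 of 4 tested fell and 0 rose, with a median of -1.87. The summed list changed less, from 99.9 to 69.6 CPM in the WT pair, 101 to 102 CPM in atrzf1 and 111 to 96.0 CPM in pca31. SIG5, a blue-light-induced plastid sigma factor, fell 6.53-fold, from 13.9 ± 1.71 to 2.15 ± 0.59 CPM. ELIP1, an early light-induced protein, was below 1 CPM in every library.

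**Figure D3:**
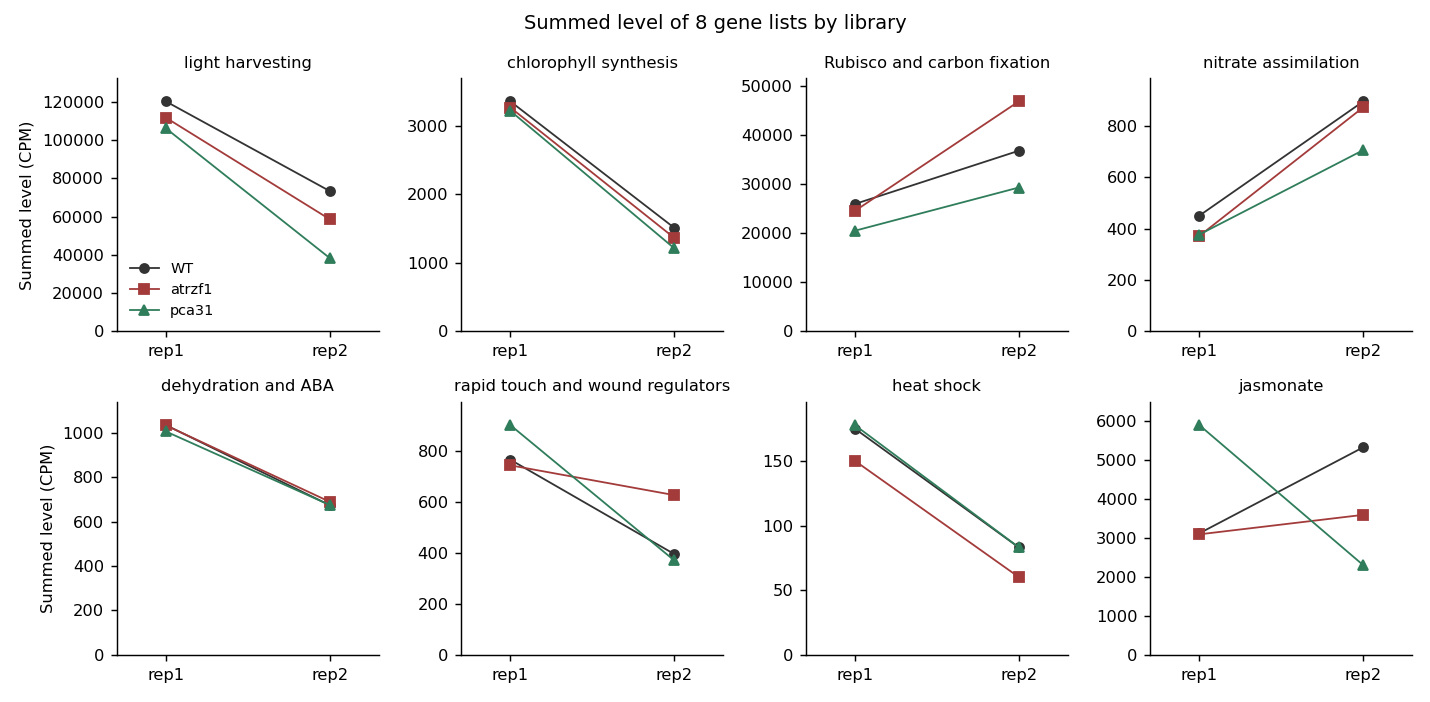
Summed level in CPM of 8 gene lists in each library, with a line joining rep1 and rep2 of each genotype and every axis starting at 0. Light harvesting, chlorophyll synthesis, dehydration, touch and heat lists go down in all 3 genotypes, carbon fixation and nitrate assimilation go up in all 3, and the jasmonate lines cross.

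Genes of nitrate assimilation rose as a group, with 4 of 4 tested members higher and a median of 1.03. NIA2, the main nitrate reductase, was at 227, 166 and 174 CPM in rep1 and at 537, 504 and 395 CPM in rep2, a 2.54-fold rise. The nitrate transporter and sensor NRT1.1 rose 2.37-fold, from 38.3 ± 4.26 to 92.3 ± 23.2 CPM. NIA1 rose 1.76-fold and the nitrite reductase gene NIR1 1.44-fold. NIA1 was not called without the atrzf1 pair (log2 fold change 0.57, edgeR adjusted p = 0.138), and NIR1 not without the WT pair (0.58, adjusted p = 0.244) or the atrzf1 pair (0.51, adjusted p = 0.158). The inducible transporter NRT2.1 was below 1 CPM in every library and was not tested.

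Some flavonoid enzymes were higher in rep2, mainly in WT and atrzf1, and a main regulator was lower. Of 14 tested, 6 rose and 1 fell, with a median of 0.77. The median log2 ratio was 1.13 in the WT pair, 1.06 in the atrzf1 pair and 0.02 in the pca31 pair. CHS, the entry enzyme, was at 43.2, 45.5 and 45.1 CPM in rep1 and at 83.3, 60.1 and 58.8 CPM in rep2, a 1.49-fold rise. TT7, a flavonoid hydroxylase, rose 3.35-fold, AT4G14090, an anthocyanin glucosyltransferase, 2.2-fold and CHI, an isomerase early in the pathway, 2.01-fold. PAP1, the MYB activator of anthocyanin synthesis, fell 6.11-fold, from 15.4, 9.16 and 15.9 CPM to 2.27, 1.91 and 2.3 CPM. Members called higher numbered 9 without the pca31 pair, 3 without the WT pair and 3 with library totals. Without the atrzf1 pair 0 were called higher: TT7 was at 1.45 (edgeR adjusted p = 0.0862), AT4G14090 at 0.88 (0.0891) and CHI at 0.69 (0.238) on the log2 scale. CHI was also not called without the WT pair (0.85, adjusted p = 0.139).

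Ribosomal protein genes were mostly not called. Of 186 tested genes annotated to the cytosolic ribosome, 26 rose and 4 fell, which together is 16.1% against 21.5% of all genes, with a median of 0.14. Their summed level was 41243, 39679.6 and 34651 CPM in rep1 and 46327, 52066 and 38509.9 CPM in rep2. The largest called changes were small: AT3G10090, an S28 family member, rose 2.06-fold, from 25.2 ± 0.10 to 52.5 ± 10.1 CPM, and rps15ae rose 1.90-fold. AT1G80750, of the L30/L7 family, fell 2.06-fold, from 10.9 ± 1.44 to 5.25 ± 0.33 CPM. AT1G29965, of the L18ae family, fell 2.14-fold, but its pca31 libraries were at 17.3 and 17.7 CPM.

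The number of calls in this list depended on the settings. Without the pca31 pair 54 rose and 27 fell, without the WT pair 3 rose and 1 fell, and without the atrzf1 pair 1 rose and 0 fell. With library totals as the scale 18 rose and 4 fell, at a median of 0.03. AT1G29965 and rps15ae were not called without the WT pair (log2 fold changes of -0.77 and 0.75, edgeR adjusted p = 0.108 and 0.129) or without the atrzf1 pair (-0.84 and 0.83, adjusted p = 0.181 and 0.0974), and AT1G80750 not without the atrzf1 pair (-0.90, adjusted p = 0.0564).

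Short transcripts as a whole were higher in rep2. In 5 equal groups by annotated transcript length, median log2 fold changes were 0.29, 0.08, -0.01, -0.13 and -0.40 from the shortest to the longest. The share of genes called higher went from 19.1% in the shortest group to 3.3% in the longest, and the share called lower from 4.67% to 21.0%. The Spearman correlation of fold change with length across 19433 genes, which are not independent replicates, was -0.33. It was -0.24 in the WT pair, -0.34 in atrzf1 and -0.25 in pca31. Genes of the cytosolic ribosome had a median length of 898.5 bases against 1719 for all genes, and with a length trend removed from each library, an alternative added after the data were seen, 2 rose and 17 fell at a median of -0.09.

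**Figure D4:**
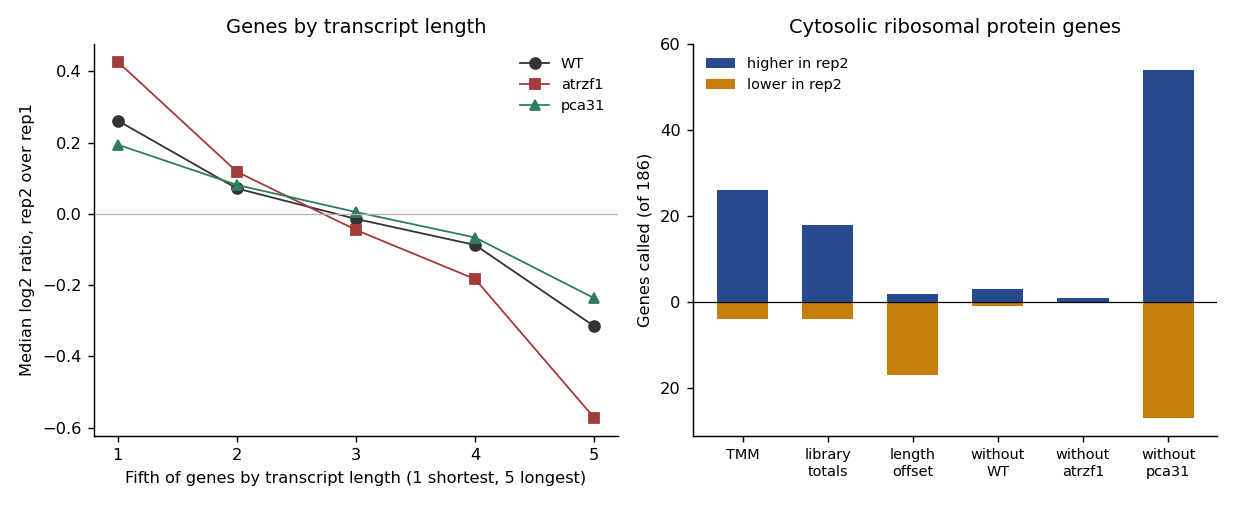
Left, median log2 ratio of rep2 over rep1 for genes in 5 groups of transcript length, 1 line per genotype pair; right, number of 186 cytosolic ribosomal protein genes called higher (up) and lower (down) in rep2 under 6 settings. Ratios go down with length in all 3 pairs, and with the length offset the ribosomal calls turn from 26 higher and 4 lower to 2 higher and 17 lower.

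Chloroplast ribosomal protein genes rose more often, with 11 of 31 tested higher, 1 lower and a median of 0.39. PSRP6, a plastid-specific protein, was at 957, 966 and 950 CPM in rep1 and at 1702, 2467 and 1412 CPM in rep2, a 1.89-fold rise. SSR16 rose 1.83-fold, from 1603 ± 66.3 to 3031 ± 936 CPM, and PSRP3/2 rose 1.83-fold at a low level with overlapping libraries. AT5G24490, annotated as a 30S ribosomal protein, fell 2.11-fold, from 149, 212 and 221 CPM to 77.4, 82.4 and 116 CPM. With the length trend removed 1 rose and 2 fell (median 0.17), with library totals 5 rose and 2 fell (median 0.28), and without the WT, atrzf1 and pca31 pair 1, 0 and 16 rose. PSRP3/2 was not called without any single pair (edgeR adjusted p = 0.146, 0.12 and 0.0661), SSR16 not without WT or atrzf1 (0.0751 and 0.127), and PSRP6 not without atrzf1 (0.0822). Of 6 nucleolar genes, NOP56 and FIB2, core proteins of small nucleolar ribonucleoproteins, fell 2.06- and 1.74-fold. FIB2 was not called without the WT pair (log2 fold change -0.82, adjusted p = 0.0633) or the atrzf1 pair (-0.67, adjusted p = 0.0808).

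Dehydration and abscisic acid genes moved both ways, with more falls than rises. Of 18 tested, 9 fell and 3 rose, with a median of -0.54, and 7 had a log2 fold change above 0. P5CS1, the enzyme that sets the rate of stress-induced proline synthesis, was at 258, 214 and 220 CPM in rep1 and at 87.8, 67.8 and 99.8 CPM in rep2. The fall was 2.73-fold (log2 fold change -1.45 ± 0.18, edgeR adjusted p = 0.000389). RD29A, a classic dehydration marker, fell 2.58-fold, from 85.1 ± 9.97 to 33 ± 3.97 CPM. The NAC factor RD26 fell 2.83-fold, and GOLS2, which makes the protectant galactinol, 2.78-fold. NCED3, the rate-limiting enzyme of abscisic acid synthesis, fell 2.27-fold, from 16.7, 13.8 and 10 CPM to 4.98, 10.8 and 3.65 CPM, with overlapping libraries. The rises were in ABI1, HAI1 and PP2CA, all type 2C phosphatases, at 1.51-, 2.27- and 1.56-fold. None of the 3 was called higher in the list without the WT or the atrzf1 pair, or with library totals, where the list held 0 rises. ABI2, HAB1, HAI2 and HAI3, the other type 2C phosphatases of the list, were not called higher in the main fit. Falls numbered 4 without the WT pair and 6 without the atrzf1 pair.

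Cold-regulated genes moved both ways. Of 11 tested, 6 fell and 3 rose, with a median of -0.97. The summed level went the other way to this median, from 2559 to 4343 CPM in the WT pair, 2987 to 3726 CPM in the atrzf1 pair and 2601 to 2727 CPM in the pca31 pair. CBF3 and CBF2, transcription factors induced by cold, fell 8.09- and 11.1-fold, CBF3 from 17.5, 12.1 and 14.8 CPM to 1.65, 2.36 and 1.51 CPM. CBF2 had a log2 fold change of -3.47, which was -4.41 without the atrzf1 pair and -2.81 without the pca31 pair. CBF1 was at 4.70 ± 0.39 and 2.34 ± 2.27 CPM and did not pass. The protective proteins they induce were not uniform: ERD10 fell 2.48-fold, while COR15A rose 2.02-fold, from 83.0 ± 17.3 to 170 ± 50.5 CPM, and KIN2 rose 1.6-fold. COR15A was not called without the atrzf1 pair (log2 fold change 0.76, edgeR adjusted p = 0.0539). The list held 0 rises without that pair or in a fit of all 9 libraries, and 1 rise without the WT pair, with no genotype term or with the length trend removed, while 5 or 6 members fell in each.

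Rapid touch and wound regulators fell and none rose: 11 of 19 were lower, with a median of -0.98. TCH4, a wall-modifying enzyme induced by touch, was at 23.0, 40 and 39.2 CPM in rep1 and at 4.94, 6.18 and 3.75 CPM in rep2, a 6.82-fold fall. The ethylene response factors ERF104 and ERF105 fell 5.56- and 5.19-fold, and the zinc finger repressor ZAT10 fell 3.94-fold. TCH2, a calmodulin-like protein, was at 85.6, 81.1 and 104 CPM in rep1 and at 47.5, 128 and 58.2 CPM in rep2, so that its atrzf1 pair went the other way. The summed list moved from 768 to 396 CPM in the WT pair, 745 to 628 CPM in the atrzf1 pair and 904 to 371 CPM in the pca31 pair.

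Of 17 tested heat shock genes 6 fell and 0 rose, against 11.2% and 10.2% of all genes, with a median of -0.72. GOLS1, a heat-induced galactinol synthase, was at 26.2, 26.51 and 46.9 CPM in rep1 and at 14.3, 4.14 and 4.36 CPM in rep2, a 5.0-fold fall. Its log2 fold change of -2.32 was -3.05 without the WT pair and -1.73 without the pca31 pair. The cytosolic chaperones HSP70 and HSP90.1 fell 3.1- and 2.37-fold, and ROF1, a heat-linked immunophilin, 2.79-fold. Without the WT pair 5 of 17 tested fell, without the atrzf1 pair 5 of 18 and without the pca31 pair 10 of 16. The small heat shock genes HSP21 and ATHSP22.0 had 0 counts in every library but the pca31 rep1 library, where they were at 0.0292 and 0.292 CPM.

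Genes of jasmonate synthesis and signalling did not move as a group: 2 of 28 fell and 0 rose, with a median of -0.11. The 3 pairs disagreed. In WT 21 of 28 were higher in rep2 and in atrzf1 18, with median log2 ratios of 0.67 and 0.66, whereas in pca31 26 were lower, with a median of -1.29. AOS, an early enzyme of the pathway, was at 445, 348 and 746 CPM in rep1 and at 719, 750 and 325 CPM in rep2 of WT, atrzf1 and pca31. The pca31 libraries were the highest of rep1 and the lowest of rep2. VSP2, a storage protein induced by jasmonate, fell 3.1-fold, from 527, 540.2 and 1213 CPM to 633, 148 and 131 CPM, although its WT pair rose. It was not called without the atrzf1 pair (log2 fold change -1.47, edgeR adjusted p = 0.195), and was at -2.53 and -0.80 without the WT and pca31 pairs. Without the pca31 pair the list held 12 rises and 1 fall, with a median of 0.60, and without the WT pair 1 rise and 6 falls, with a median of -0.50.

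**Figure D5:**
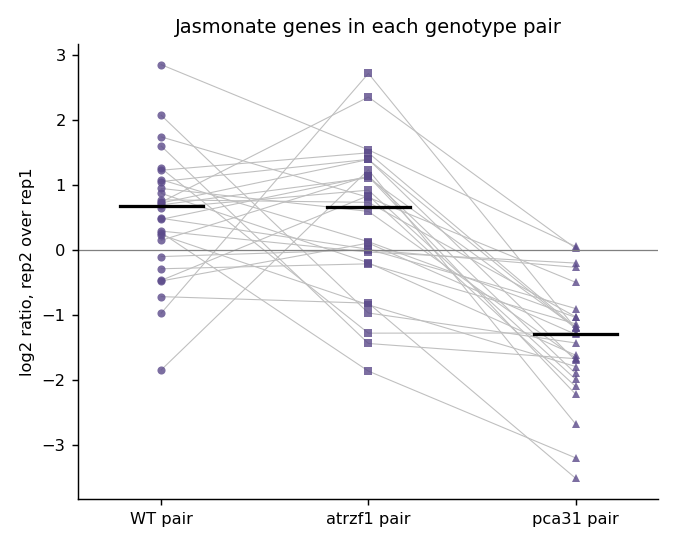
Log2 ratio of rep2 over rep1 for each of 28 tested jasmonate genes in each genotype pair, with grey lines joining a gene and black bars at the medians. The WT and atrzf1 medians lie at 0.67 and 0.66 and the pca31 median at -1.29.

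In salicylic acid defence 2 of 16 rose and 2 fell, near the 10.2% and 11.2% of all genes, so the list as a whole did not stand out and only single genes are given. PR5 and PR2, pathogenesis-related proteins, rose 3.95- and 3.12-fold, PR5 from 5.91, 3.45 and 2.69 CPM to 31.9, 12.9 and 8.04 CPM. ICS1, the main enzyme of salicylic acid synthesis, fell 3.04-fold, from 9.08 ± 0.50 to 3.05 ± 0.80 CPM, and the factor WRKY70 fell 1.93-fold. Sugar starvation genes fell in 4 of 12 cases, against 11.2% of all genes, with a median of -0.42. Falls numbered 5 without the WT pair, 3 without the atrzf1 pair (median -0.20) and 6 without the pca31 pair. Their median transcript length was 2664.5 bases, against 1719 for all genes, and with the length trend removed 3 fell, at a median of -0.19. TPS11 and TPS8, proteins of the trehalose phosphate synthase family, fell 4.29- and 3.72-fold, and the dark-induced SEN1 fell 2.48-fold. DIN10 fell 1.87-fold and was not called without the atrzf1 pair (log2 fold change -0.80, edgeR adjusted p = 0.0732).

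Auxin response genes fell in 5 of 16 cases and 0 rose, against 11.2% and 10.2% of all genes, with a median of -0.55. Falls numbered 3 without the WT or the atrzf1 pair and 8 without the pca31 pair. IAA29 and IAA1, repressors induced by auxin, fell 5.04- and 4.31-fold, IAA29 from 16.4, 17.1 and 12.1 CPM to 3.84, 2.36 and 2.85 CPM. IAA2 fell 2.41-fold and IAA3 1.8-fold. IAA3 was not called without the WT pair (log2 fold change -0.72, edgeR adjusted p = 0.112) or the atrzf1 pair (-0.81, adjusted p = 0.0566). Among 6 cell division genes 2 fell and 0 rose, with a median of -0.51. The cytokinesis syntaxin KNOLLE fell 2.47-fold and the mitotic cyclin CYCB1;2 1.90-fold, and without the atrzf1 pair neither was called (-0.92 and -0.68, adjusted p = 0.0899 and 0.139).

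Markers of root and flower were low. Of 17 root markers 4 were tested, 4 were at 0 in all rep1 libraries and 7 in all rep2 libraries. PYK10, an abundant root beta-glucosidase, fell 3.02-fold, from 139, 61.9 and 59.1 CPM to 48.9, 16.0 and 23.4 CPM, and SHR, a root patterning factor also present in shoots, rose 1.66-fold. The root hair genes EXPA7 and RHD6 had 0 counts in all 6 libraries. The summed root list was 168, 94.3 and 86.7 CPM in rep1 of WT, atrzf1 and pca31 and 95.6, 65.0 and 62.0 CPM in rep2, lower in all 3 pairs. PYK10 alone made up most of that sum in each rep1 library, so the sum largely follows this gene. Of the 4 tested root markers 3 had a log2 fold change above 0 and 1 below, with a median of 0.43. The summed floral identity list was 15.8, 74.0 and 56.7 CPM in rep1 and 25.2, 50.8 and 73.1 CPM in rep2. Of its 11 members 2 were higher and 1 lower, against 10.2% and 11.2% of all genes, with a median of -0.09. FUL rose 2.59-fold, SEP4 1.75-fold and SEP3 fell 1.84-fold. The part of these tissues in the results above was not tested. Without the WT pair SHR (0.65, edgeR adjusted p = 0.165), SEP3 (-0.90, 0.0539) and SEP4 (0.76, 0.118) were not called, nor were SHR (0.69, 0.0909) and SEP3 (-0.45, 0.362) without the atrzf1 pair.

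Genes often used as references were called about as often as all genes, 20% against 21.5%, with 1 of 10 higher, 1 lower and a median of 0.12. Without the pca31 pair 4 of the 10 were called higher and 1 lower, without the atrzf1 pair 1 and 0, and without the WT pair 0 and 0. Their summed level went from 15581 to 23078 CPM in the WT pair, 13858 to 16197 CPM in the atrzf1 pair and 12039 to 12015 CPM in the pca31 pair. ACT2 rose 1.64-fold, from 240 ± 31.3 to 398 ± 76.1 CPM, and PP2AA3 fell 1.66-fold, from 94.7 ± 15.8 to 57.4 ± 11.7 CPM. Neither was called without the WT pair (log2 fold changes of 0.63 and -0.66, edgeR adjusted p = 0.199 and 0.163), nor PP2AA3 without the atrzf1 pair (-0.51, adjusted p = 0.2).

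The largest rises over all genes were led by further genes tied to the evening clock. JMJD5, a jumonji-domain protein with a known role in the clock, was at 3.54, 3.54 and 3.86 CPM in rep1 and at 148, 159 and 138 CPM in rep2. That 40.7-fold rise (log2 fold change 5.35 ± 0.20, edgeR adjusted p = 3.3e-07) was the largest by the rule for named genes. COR27, a cold-regulated repressor of PRR5 and TOC1, rose 20-fold, from 1.85, 4.22 and 7.93 CPM to 80.9, 89.4 and 77.7 CPM. COL9, a CONSTANS-like flowering repressor, rose 7.49-fold, from 11.6 ± 2.29 to 86.2 ± 7.37 CPM. RVE2 and BOA, described above, were also among the 10 largest rises.

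The other 5 were of mixed function. AT3G24420, an alpha/beta-hydrolase, rose 17.9-fold, PCR1, a membrane protein of cadmium resistance, 10.2-fold and BG3, a beta-1,3-glucanase, 9.81-fold. BG3 had a log2 fold change of 3.29, which was 3.89 without the pca31 pair. RR16, a response regulator of cytokinin signalling, rose 7.39-fold, from 3.70 ± 0.19 to 27.8 ± 6.68 CPM. AT4G13505 rose 7.5-fold, from 8.83, 6.49 and 12.4 CPM to 70, 91.7 and 47.3 CPM. It lies on the strand opposite the ammonium transporter gene AMT1;1, which rose 5.2-fold, and with the counting strand not given the reads of the overlapping genes cannot be told apart.

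The 10 largest falls held 5 genes already described, LNK1, LNK2, LNK3, PRR7 and RVE7, with LHCB2.3 as the antenna gene among them. CIPK20, a kinase regulated by calcium sensors, was at 27.1, 28.8 and 30.6 CPM in rep1, and gave 2809 counts there against 4 counts in rep2. The ratio was 636, with an exact 95% counting interval of 248 to 2.33e+03. MYBL2, a repressor of anthocyanin synthesis, fell 36.9-fold, from 57.8 ± 6.06 to 1.56 ± 0.525 CPM. BBX16, a B-box protein of light responses, fell 34.3-fold, from 38.6, 27.6 and 33.9 CPM to 1.84, 0.813 and 0.529 CPM. AT1G13650, a protein of unknown function, fell 79.3-fold, from 17.9 ± 5.46 to 0.222 ± 0.21 CPM, with a log2 fold change of -6.31 that was -7.12 without the pca31 pair.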

How the data were processed

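The deposited values are raw read counts per gene, 1 file per library. Per the submitters' processing notes, Bowtie2, bedtools and the TAIR10 build were used; versions, counting strand, annotation and filters were not given in these sources. Samples were grouped by the replicate number in their titles, and 0 columns of per-sample values were left unused. Of 33323 gene identifiers, 32835 matched RefSeq locus tags (TAIR10.1).

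The fit used edgeR 4.0.16 (R 4.3.3): TMM scaling, filterByExpr (minimum count 10, minimum total 15), and a quasi-likelihood fit with genotype and replicate number as terms, at a Benjamini-Hochberg adjusted p under 0.05. The genotype term pairs each rep1 library with the rep2 library of the same genotype. The SE of a log2 fold change is its size divided by the square root of F. The procedure was tested on simulated data. Alternatives were DESeq2 1.42.0, limma 3.58.1 voom, other scalings and filters, all 9 libraries, no genotype term and each pair left out; a length offset was added after the data were seen.

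The members and lists were chosen with earlier results of these data known. Ribosomal lists (194 cytosolic and 34 chloroplast genes) were drawn from the annotation's notes, not its product descriptions as first planned, and 125 ribosome-annotated genes with no usable location were left out. Named genes were LHY, both clock lists, up to 4 called members per other list with the largest change, and the 10 largest rises and falls with all 3 pairs moving the same way, each with a mean of at least 5 CPM in the higher number. Other genes named beside them were chosen after their values were seen. Counting intervals are exact at 95% and cover counting error only.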

Additional observations from a re-analysis of the deposited data

Results flagged for a closer look

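The summed level of the jasmonate list moved in opposite directions between genotypes. Its log2 ratio of rep2 over rep1 was 0.7718 in the WT pair and 0.2163 in the atrzf1 pair, and -1.357 in the pca31 pair. The summed floral identity list also moved in opposite directions, at 0.6719 in WT, -0.5423 in atrzf1 and 0.3663 in pca31. Each genotype has 1 library per number, so neither difference between genotypes was tested.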

How the results depend on the processing

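LHY kept its direction and its call in each alternative that tested it, and was not tested with a mean of at least 5 CPM. Library totals in place of TMM left 1261 genes higher in rep2. A 2-fold minimum left 1909 called genes, 680 higher and 1229 lower. Leaving out a pair or 1 library gave 1546 to 6765 called genes, 614 to 3356 higher and 910 to 3409 lower, and LHY log2 fold changes of -3.69 to -2.63. Without the genotype block 3790 genes were called, 1865 higher and 1925 lower. DESeq2 called 4626, limma-voom 4447, and the length offset 3495. Among values of named genes under alternatives, 2056 kept their direction and side of the threshold, 181 were no longer called, 10 were newly called and 4 changed sign, none of them called in either fit: LUX was at -0.062 without the WT pair, and FKF1 at 0.083 without the atrzf1 pair, 0.016 without the pca31 pair and 0.051 without the atrzf1 rep1 library and the block. Over all leave-outs FKF1 ran from -0.52 to 0.083 and LUX from -0.062 to 0.77. Of 112 called named genes, 16 were not called without the WT pair, 28 without the atrzf1 pair and 1 without the pca31 pair; the cause was not tested. With 3 pairs, a sign-flip permutation test of a single value cannot go below p = 0.25. Levels under about 0.1 CPM rest on 3 counts or fewer.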

Other observations

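Some gene families outside the lists also differed between the numbers. They were gathered by annotated product after the values were seen, so no test is given. Among all genes, 10.2% were called higher and 11.2% lower, but these shares varied with transcript length. The shortest of the 5 length groups had 19.1% called higher and 4.67% lower, and the longest 3.3% and 21.0%. These families were not counted with the length trend removed, so the part of transcript length in their shares was not tested. Of 40 tested kinesin-like motor proteins, which move cargo along microtubules, 17 were lower in rep2 and 1 was higher, with a median log2 fold change of -1.02. Of 10 filament-like proteins 7 were lower and 0 higher (median -1.40), and of 19 beta glucosidases 8 were lower and 0 higher (median -0.73). TCP transcription factors, which regulate growth, were higher in 9 of 19 cases and lower in 1 (median 0.55). GRAS transcription factors were higher in 9 of 20 cases and lower in 3 (median 0.52), and histone H2A genes higher in 5 of 9 and lower in 0 (median 0.57).

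A group of iron-deficiency bHLH factors, also picked after their values were seen, was higher in rep2. BHLH100 was at 4.48, 1.61 and 1.87 CPM in rep1 of WT, atrzf1 and pca31 and at 5.64, 26 and 27.3 CPM in rep2, so its WT pair differed little. bHLH38 had a log2 fold change of 2.45, with log2 ratios of 0.69 in the WT pair, 3.16 in atrzf1 and 3.40 in pca31. bHLH39 had a log2 fold change of 2.49. The ammonium transporter gene AMT1;1 was at 51.6, 49.0 and 47.2 CPM in rep1 and at 308, 305 and 179 CPM in rep2.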
